A study of Mus musculus with 10 samples.

Results

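The genes described here are the interferon-induced and homeostatic CXC chemokines that lack the ELR motif, *Cxcl9*, *Cxcl10*, *Cxcl12*, *Cxcl13*, *Cxcl14* and *Cxcl16*, their receptors *Cxcr3*, *Cxcr4* and *Cxcr6*, and the CX3C chemokine *Cx3cl1*. They were chosen by symbol, and all 10 were found among the 24452 named genes of the count table and among the 15543 genes with enough counts to be tested. RNA was sequenced from back skin of 5 WT mice and 5 Zfp36ΔARE mice (genotype label TTP delta ARE), all on the C57BL/6 strain, with 1 library per mouse. *Zfp36* encodes tristetraprolin (TTP), a protein that binds AU-rich elements in mRNA and speeds their decay. In Zfp36ΔARE mice an instability motif is missing from the 3′-UTR of the endogenous *Zfp36* gene in every cell, so the allele is not limited to one cell type, and the controls were littermates. Both groups, 7 weeks old at the start, received 400 nmol of the mutagen DMBA once and then 10 nmol of the phorbol ester TPA 2 times a week for 20 weeks. The samples were full-thickness, treated skin without tumor, and no untreated skin was analysed here.

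Chemokines are small secreted proteins that direct the migration of leukocytes through G protein-coupled receptors. CXC chemokines with the ELR motif act mainly on neutrophils, whereas those without it act mainly on lymphocytes and other mononuclear cells. CXCL9 and CXCL10 are induced by interferon-γ and attract activated T cells and NK cells through CXCR3. CXCL12 is made by stromal cells and retains CXCR4-bearing cells in tissues, CXCL13 guides B cells through CXCR5, and CXCL14 is a constitutive product of epithelia. CXCL16, which binds CXCR6, and CX3CL1, which binds CX3CR1, are made as membrane proteins that proteases can shed.

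AU-rich elements and promoter motifs are shown for the members that carry them, because TTP acts on the first and interferon and NF-κB act through the second. In the annotated 3′-UTRs, the heptamer TATTTAT, searched on the transcribed strand, occurred in *Cxcl12* and in *Cx3cl1* and in 0 of the other 8 members. It occurred in 29.5% of the 14408 tested genes with a 3′-UTR. The nonamer TTATTTATT, which holds the heptamer, occurred in 7.94% of them and, among the members, in *Cx3cl1*. The sites are given on the gene's strand with the heptamer in capitals.
Cxcl12, chr6:117176371-117176391 (GRCm38, plus strand), base 199 of the 5188-base 3′-UTR: gctgctgTATTTATgtgcttc
Cx3cl1, chr8:94780854-94780874 (GRCm38, plus strand), base 305 of the 1871-base 3′-UTR: gaacaatTATTTATtggattc
The shorter pentamer ATTTA was found 3 times in each of *Cxcl9* and *Cxcl10*, 4 times in *Cxcl12*, 2 times in *Cxcl13* and in *Cxcl16*, 1 time in *Cxcr4* and in *Cx3cl1*, and 0 times in *Cxcr3*, *Cxcl14* and *Cxcr6*.

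Promoters from RefSeq (GRCm38.p6, 250 bases before to 50 after each start) were matched for 9 of the 10 members, all but *Cxcl16*. On both strands, the interferon-stimulated response element (GAAA, any 2 bases, GAAA) was found in 3.44% of the 32851 promoters and the NF-κB motif (GGGA, any 4 bases, CC) in 20.7%. The matches in members follow with the motif in capitals, each on the strand of its gene. The *Cxcl9* match lies on the opposite strand, and each motif match is a description of letters, not of binding.
Cxcl10, response element, chr5:92349085-92349110 (minus strand), 213 bases upstream: acgctttgGAAAGTGAAActtacctc
Cxcl10, NF-κB motif, chr5:92349031-92349056 (minus strand), 159 bases upstream: aggggagaGGGAAATTCCaagttcat
Cxcl10, NF-κB motif, chr5:92348975-92349000 (minus strand), 103 bases upstream: gtttacagGGGACTTCCCtcgggttg
Cxcl9, NF-κB motif, chr5:92328192-92328217 (minus strand), 130 bases upstream: tgagagtaGGGTTTTCCCcaggacga
Cxcl13, NF-κB motif, chr5:95956868-95956893 (plus strand), 63 bases upstream: gggtcagtGGGAGGGCCCtggctggt
Cxcl14, response element, chr13:56296706-56296731 (minus strand), 172 bases upstream: gtccacagGAAACAGAAAagcagcac
*Cxcr3*, *Cxcl12*, *Cxcr4*, *Cxcr6* and *Cx3cl1* held 0 matches to these 2 motifs in this window.

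The libraries held 19595024 to 36419553 counts each, and the members had between 23 and 11736 raw counts in a library. *Zfp36*, the targeted gene, had 1824 to 2496 normalized counts in WT and 4196 to 6134 in Zfp36ΔARE skin, 2.52-fold more and without overlap. The Y-linked genes had counts of 3349 to 4262 in Zfp36ΔARE replicates 2 to 5 and of at most 1 in each of the other 6 libraries, so the effect of this mark cannot be told apart from that of genotype, and *Cxcr3* lies on chromosome X. Hair shaft genes, mostly keratins, summed to 535 CPM (counts scaled to library size) in WT replicate 1 and 85.7 in WT replicate 3, against 2771 to 3727 in the other WT libraries and 5745 to 17044 in Zfp36ΔARE skin. *S100a8* and *S100a9*, abundant in neutrophils and stressed keratinocytes, summed to 18294 normalized counts in Zfp36ΔARE replicate 4 and to at most 4696 elsewhere.

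Of the 10 members, 1 had an adjusted p below 0.05 (edgeR), with groups that overlapped. *Cx3cl1* rose by 1.24-fold, and the other 9 did not pass the test. When a call required more than a 2-fold change besides an adjusted p below 0.05 (edgeR), 0 of the 10 members were called, against 8.31% of all tested genes (6.64% lower and 1.67% higher). DESeq2 and limma-voom also called 0 of them. Without the condition on fold, 1 of 10 passed, against 34.3% of all tested genes, and 2 had an unadjusted p under 0.05, *Cxcr3* and *Cx3cl1*. The values of both genotypes overlapped in each of the 10 members, while 23.1% of all tested genes had groups that did not overlap. The median log2 fold change of the members was -0.09, with 6 below 0 and 4 above, and that of all tested genes was 0.0076. In whole skin, fewer cells of a type and less RNA per cell cannot be told apart.

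**Figure D1:**
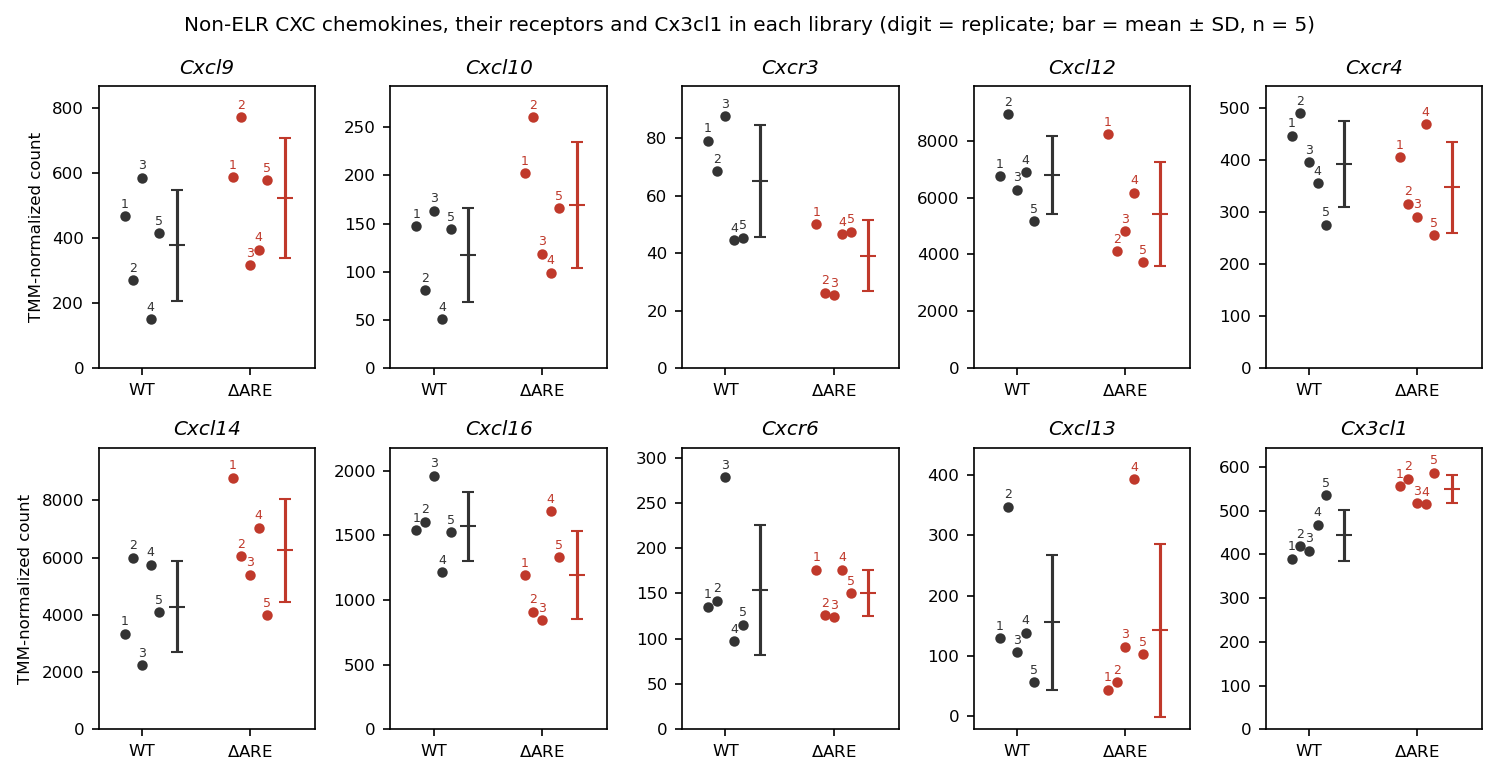
TMM-normalized counts of the 10 members in each library, with WT in black, Zfp36ΔARE in red, digits for the replicate and bars for the mean ± SD (n = 5). The genotypes overlap in every panel, and *Cx3cl1* shows the narrowest spread.

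*Cxcl9* and *Cxcl10*, the interferon-induced ligands of CXCR3, had higher means in Zfp36ΔARE skin, but the difference was within the spread between mice. Without WT replicates 1 and 3 their log2 fold changes were 0.91 and 0.89 (adjusted p = 0.139 and 0.164, edgeR). *Cxcl9* (Entrez 17329, chr5:92321347-92328079, minus strand) had 468, 270, 586, 149 and 416 normalized counts in WT replicates 1 to 5. In Zfp36ΔARE replicates 1 to 5 it had 587, 773, 316, 364 and 579. Replicates 1 and 2 of the Zfp36ΔARE group thus lay above every WT library and the other 3 lay among them. Its log2 fold change was 0.48 (95% interval -0.31 to 1.26, adjusted p = 0.306, edgeR).

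*Cxcl10* (Entrez 15945, chr5:92346638-92348889, minus strand) had 147, 80.8, 164, 50.5 and 144 normalized counts in WT skin and 202, 261, 119, 98.8 and 166 in Zfp36ΔARE skin. Here 3 of the 5 Zfp36ΔARE libraries lay above the WT range. Its log2 fold change was 0.54 (95% interval -0.23 to 1.31, adjusted p = 0.243, edgeR). In the annotation, 5.91% of the exon bases of *Cxcl10* also belong to *Art3* on the other strand, which had 1221 ± 464 normalized counts in WT and 689 ± 94.2 in Zfp36ΔARE skin (SD, n = 5). As it is not stated that counting used strand, reads of the shared bases cannot be told apart.

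Both ligands moved together from library to library. The ratio of *Cxcl9* to *Cxcl10* normalized counts stayed between 2.67 and 3.69 over the 10 libraries, a 1.38-fold range, while each gene alone spanned 5.17-fold. WT replicate 4 was the lowest library for both genes and Zfp36ΔARE replicate 2 the highest. Of 13695 genes with a mean of at least 50 normalized counts, *Cxcl10* had the profile nearest to that of *Cxcl9* (root mean square distance of centred log2(CPM + 1) values 0.16 over 10 libraries), and *Cxcl9* the one nearest to *Cxcl10*. The second nearest were *Iigp1* to *Cxcl9* (0.26) and *Igtp* to *Cxcl10* (0.21), both interferon-inducible GTPases. Libraries of both genotypes lie along one line in the plot of *Cxcl9* against *Cxcl10*.

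**Figure D2:**
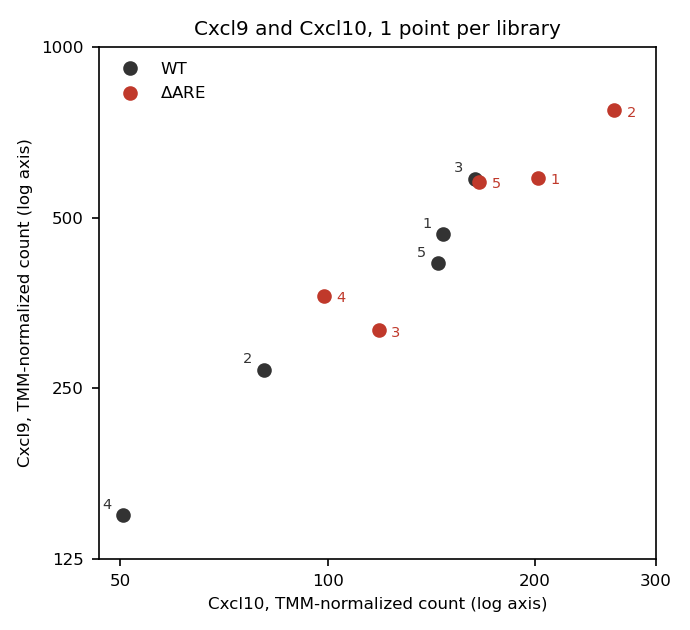
TMM-normalized counts of *Cxcl9* (vertical, log axis) against *Cxcl10* (horizontal, log axis), 1 point per library, with WT in black and Zfp36ΔARE in red and digits for the replicate. The points run from WT replicate 4 (149 and 50.5) to Zfp36ΔARE replicate 2 (773 and 261).

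*Cxcr3* (Entrez 12766, chrX:101731535-101734269, minus strand), the receptor of both ligands on activated T and NK cells, had the lowest level of the members. It had 79.2, 68.7, 87.9, 44.6 and 45.4 normalized counts in WT skin and 50.2, 26.3, 25.3, 46.7 and 47.5 in Zfp36ΔARE skin. WT replicates 1 to 3 lay above all Zfp36ΔARE libraries, Zfp36ΔARE replicates 2 and 3 below all WT libraries, and the remaining 5 libraries between 44.6 and 50.2. For *Cxcr3*, a log2 fold change of -0.73 (95% interval -1.35 to -0.12) had an unadjusted p of 0.0239 and an adjusted p of 0.0627 with edgeR's quasi-likelihood test. It passed with DESeq2 (adjusted p = 0.036) and with edgeR without WT replicate 4 (0.0441) or WT replicate 5 (0.0483). Without WT replicates 1 and 3, the libraries with few hair shaft transcripts, it was -0.44 (adjusted p = 0.325).

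The balance of ligand and receptor within a library does not depend on how libraries are scaled. On the scale of log2((CPM + 0.1)/(CPM + 0.1)), the *Cxcl9* to *Cxcr3* ratio was 2.53, 1.93, 2.70, 1.69 and 3.12 in WT libraries and 3.48, 4.74, 3.51, 2.89 and 3.54 in Zfp36ΔARE libraries. All but replicate 4 of the Zfp36ΔARE group lay above the WT range. The mean was 1.24 higher (exact two-sided permutation test, p = 0.0159, adjusted p = 0.037 over 7 ratios). The *Cxcl10* to *Cxcr3* ratio was 1.26 higher (exact permutation test, p = 0.0159, adjusted p = 0.037), again with 4 of 5 Zfp36ΔARE libraries above the WT range. The *Cxcl9* and *Cxcl10* ratios share the *Cxcr3* counts, so they are not separate evidence. *Cxcl9*, *Cxcl10* and *Cxcr3* did not pass singly in the edgeR fit of all libraries. All 7 ratios were chosen with earlier results of these data known, so their p-values are not those of an independent test. The smallest p that 5 mice against 5 allow is 0.00794.

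Leaving out single mice changed these calls but not the direction of the differences. Leaving out Zfp36ΔARE replicate 4 kept both calls. Leaving out any other single library raised both adjusted p above 0.05, up to 0.0926, with differences of 0.96 to 1.42 for *Cxcl9* and 0.96 to 1.47 for *Cxcl10*. Without WT replicates 1 and 3 together the differences were 1.38 and 1.34. The smallest p that 3 mice against 5 allow is 0.0179, so a missed threshold there says little, and no call was made.

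Most genes of the interferon-γ pathway, which induces these ligands, did not pass the test. *Ifng* itself had 5 to 9 raw counts in WT libraries and 9 to 12 in Zfp36ΔARE libraries, too few to be tested. Its normalized ranges (5.16 to 7.37 and 8.15 to 15.8) did not meet, as was so for 23.1% of all tested genes. At so few counts no difference is read from this. Of the 15 tested genes of the pathway list, 4 passed lower and 0 higher, with a median log2 fold change of -0.22. At an unadjusted p under 0.05 these counts were 6 and 0, by DESeq2 5 and 0 and by limma-voom 4 and 0 (adjusted p). Among all tested genes 19.1% passed lower and 15.3% higher. *Jak1*, the kinase bound to the interferon receptor, fell by 0.58 on the log2 scale (adjusted p = 0.00659, edgeR). *Nfkb1*, a subunit of NF-κB, had a log2 fold change of -0.22 (adjusted p = 0.0588). The other genes that passed, *Ifngr1*, *Irf8* and *Ciita*, the activator of MHC class II genes, are named after their values were seen. *Ciita* was the 1 gene of the list called lower (log2 fold change -1.11), against 6.64% of all tested genes. Without WT replicates 1 and 3, 0 genes of the list were called lower, against 2.11% of all tested genes. In that fit 4 of the 15 still passed lower and 0 higher, while 9.06% of all tested genes passed lower.

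Markers of the cells that bear CXCR3 did not pass the test. Of 9 tested T cell markers, 0 passed in either direction with edgeR, DESeq2 or limma-voom, and 0 had an unadjusted p under 0.05 in edgeR. Their summed level was 31.2 to 54.3 CPM in WT and 30.1 to 44.5 in Zfp36ΔARE skin, with *Lck*, *Cd4* and *Cd3g* most abundant (log2 fold changes 0.21, -0.01 and 0.05). The 6 NK cell markers summed to 4.51 to 8.83 CPM in WT and 3.17 to 5.53 in Zfp36ΔARE skin, and 0 of the 2 with enough counts, *Klrk1* and *Gzma*, passed with any of these tools, with 1 lower at an unadjusted p under 0.05. *Prf1* had too few counts for edgeR. None of these markers was at 0 in all libraries, and their part in the *Cxcr3* values was not tested.

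*Cxcr6* (Entrez 80901, chr9:123806475-123811760, plus strand), a receptor of tissue-resident T and NK cells, did not pass the test. It had 135, 142, 278, 97.1 and 116 normalized counts in WT skin and 176, 126, 124, 176 and 150 in Zfp36ΔARE skin. WT replicate 3 stood above all other libraries, and all Zfp36ΔARE values lay inside the WT range. The log2 fold change of -0.02 (95% interval -0.61 to 0.56, adjusted p = 0.951, edgeR) became 0.29 without WT replicate 3. The nearest profiles over the 10 libraries were those of the T cell genes *Cd4* (distance 0.16) and *Cd3d* (0.17), and *Cd4* too was highest in WT replicate 3, at 257 normalized counts.

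*Cxcl16* (Entrez 66102, chr11:70453983-70459984, minus strand), the ligand of CXCR6 and a scavenger receptor of macrophages, was lower on average in Zfp36ΔARE skin without passing the test. It had 1537, 1605, 1961, 1216 and 1523 normalized counts in WT and 1194, 911, 846, 1688 and 1329 in Zfp36ΔARE skin. Replicates 1 to 3 of the Zfp36ΔARE group lay below every WT library, and replicate 4 above all WT libraries but replicate 3. The log2 fold change was -0.40 (95% interval -0.81 to 0.02, adjusted p = 0.123, edgeR), and without Zfp36ΔARE replicate 4 it was -0.55 and passed (adjusted p = 0.035). The *Cxcl16* to *Cxcr6* log2 ratio was 0.48 lower on average (exact two-sided permutation test, p = 0.0476, adjusted p = 0.0833, 5 mice per group). In the annotation, 18.3% of the exon bases of *Cxcl16* also belong to *Zmynd15* on the other strand, which had 155 ± 33.1 normalized counts in WT and 96.7 ± 28.5 in Zfp36ΔARE skin (SD, n = 5).

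Macrophage markers, by contrast, fell. Of the 12, 11 were called lower (median log2 fold change -1.35), or 8 without WT replicates 1 and 3, and their summed level was 987 to 1947 CPM in WT and 434 to 665 in Zfp36ΔARE skin. *Lyz2*, *Mrc1* and *Csf1r*, the most abundant, had log2 fold changes of -1.89, -1.40 and -1.50. Dendritic and Langerhans cell markers had 6 of 10 lower (1 of them called), or 3 and 0 without WT replicates 1 and 3, and *H2-Aa* and *H2-Ab1*, MHC class II chains, had log2 fold changes of -0.91 and -0.85 against 0.05 for *Epcam*. The study also used EpCAM to sort epidermal cells that lack CD45, so *Epcam* is not limited to Langerhans cells. Of all tested genes 19.1% passed lower and 6.64% were called lower, or 9.06% and 2.11% without WT replicates 1 and 3. *Cxcl9* and *Cxcl16* are both known products of myeloid cells, and the part of these cells in their values was not tested.

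*Cxcl12* (Entrez 20315, chr6:117168535-117181367, plus strand) and its receptor *Cxcr4* (Entrez 12767, chr1:128588199-128592293, minus strand) form the stromal retention axis, and neither passed the test. *Cxcl12* had 6763, 8928, 6282, 6898 and 5165 normalized counts in WT skin and 8226, 4107, 4817, 6172 and 3724 in Zfp36ΔARE skin. Zfp36ΔARE replicates 2, 3 and 5 lay below every WT library, whereas replicate 1, the one without Y-linked counts, was the second highest of all 10. For *Cxcl12* the log2 fold change was -0.33 (95% interval -0.82 to 0.15, adjusted p = 0.252, edgeR). Without Zfp36ΔARE replicate 1 it was -0.53 (adjusted p = 0.0523).

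*Cxcr4* had 447, 490, 395, 355 and 275 normalized counts in WT and 405, 316, 291, 469 and 256 in Zfp36ΔARE skin, so the ranges nearly coincided. It had a log2 fold change of -0.18 (95% interval -0.60 to 0.25, adjusted p = 0.489, edgeR). The *Cxcl12* to *Cxcr4* log2 ratio ran from 3.91 to 4.27 in WT and from 3.69 to 4.33 in Zfp36ΔARE libraries, and the mean difference of -0.19 had p = 0.206 in the exact two-sided permutation test.

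*Ackr3*, the atypical receptor that binds and removes CXCL12, did fall. It had 1702, 1429, 1666, 1473 and 1145 normalized counts in WT and 903, 880, 902, 889 and 1084 in Zfp36ΔARE skin. Each Zfp36ΔARE library lay below each WT library. This gave a log2 fold change of -0.67 (95% interval -0.91 to -0.43, adjusted p = 0.00522, edgeR), or 1.59-fold, short of the 2-fold threshold. The *Cxcl12* to *Ackr3* log2 ratio was 0.29 higher on average, within the spread between mice (exact permutation test, p = 0.31, adjusted p = 0.361). *Dpp4*, the peptidase that inactivates CXCL12 and CXCL10, had a log2 fold change of 0.27 (adjusted p = 0.141), and without WT replicate 2 it was 0.40 and passed (0.0222).

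Markers of the stroma that makes CXCL12 moved in the same direction as *Ackr3*. All 8 endothelial markers fell, 4 of them called (7 and 0 without WT replicates 1 and 3), with a median log2 fold change of -0.98 and a summed level of 205 to 454 CPM in WT and 123 to 162 in Zfp36ΔARE skin. *Pecam1*, *Vwf* and *Cdh5* had log2 fold changes of -1.09, -1.11 and -0.92. Of 8 fibroblast markers 5 passed lower, 1 of them called (3 and 0 without these libraries), with summed levels of 6347 to 13342 CPM in WT and 3595 to 10031 in Zfp36ΔARE skin. The collagens *Col3a1*, *Col1a2* and *Col1a1* did not pass (log2 fold changes -0.59, -0.15 and -0.21). Skeletal muscle genes were called lower in 7 of 8, and in 0 without WT replicates 1 and 3 (*Myh4* -1.88, *Acta1* -1.52, *Tnnt3* -1.45), adipocyte genes in 4 of 8, and in 1 without them (*Plin4* -1.04 and *Lpl* -0.82 passed lower, *Fabp4* at -0.28 did not), and mast cell genes in 6 of 7, also without them (*Mcpt4* -1.71, *Cpa3* -2.0), whereas *Kit* rose by 0.29. The shares of all tested genes were 19.1% passing lower and 6.64% called lower, or 9.06% and 2.11% without WT replicates 1 and 3. The part of these cell types in the values of *Cxcl12* and *Ackr3* was not tested.

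*Cxcl13* (Entrez 55985, chr5:95956951-95961068, plus strand), the B cell chemoattractant, was the most variable member. It had 130, 347, 106, 139 and 56.7 normalized counts in WT and 44.2, 56.1, 115, 393 and 103 in Zfp36ΔARE skin. One library in each group, WT replicate 2 and Zfp36ΔARE replicate 4, held over 340 and the other 8 held under 140. The coefficient of variation was 71.7% in WT and 101% in Zfp36ΔARE skin, and the log2 fold change of -0.16 had a 95% interval of -1.57 to 1.25 (adjusted p = 0.86, edgeR). Without WT replicate 2 it was 0.38, and without Zfp36ΔARE replicate 4 it was -0.99. Its nearest profile was that of *Lcn2* (distance 0.40), which encodes lipocalin 2, a protein of neutrophils and inflamed epithelium, and the next that of *Slc13a3* (0.46). Zfp36ΔARE replicate 4 also held the most *S100a8* and *S100a9*, though these 2 genes and *Cxcr2* did not pass (log2 fold changes 0.72, 0.81 and -0.24), and 1 of 6 tested neutrophil markers was called lower (0 without WT replicates 1 and 3). Of all tested genes 6.64% were called lower, or 2.11% without WT replicates 1 and 3.

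*Cxcr5*, the receptor of CXCL13, had 0 to 6 raw counts in a library, too few to be tested. The *Cxcl13* to *Cxcr5* ratio (log2 difference -0.02, exact permutation p = 0.984) therefore carries no information on the axis. B cell markers were scarce as well, summing to 1.66 to 2.07 CPM in WT and 1.12 to 3.75 in Zfp36ΔARE skin. Of the 2 with enough counts 0 passed with edgeR, DESeq2 or limma-voom, and 0 had an unadjusted p under 0.05. *Cd79b*, a chain of the B cell receptor complex, had a log2 fold change of -0.16, and *Cd79a* had too few counts.

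*Cxcl14* (Entrez 57266, chr13:56288643-56296551, minus strand), the epithelial chemokine, had the highest level per gene length of the members in both genotypes. It had 3341, 5997, 2254, 5760 and 4093 normalized counts in WT and 8794, 6056, 5412, 7055 and 3994 in Zfp36ΔARE skin. Zfp36ΔARE replicates 1, 2 and 4 lay above every WT library, and WT replicates 1 and 3 below every Zfp36ΔARE library. For *Cxcl14* the log2 fold change was 0.55 (95% interval -0.07 to 1.17, adjusted p = 0.147, edgeR). WT replicates 1 and 3 are the libraries with few hair shaft transcripts, and without them the log2 fold change was 0.24 (adjusted p = 0.506). The nearest profile was that of the non-coding RNA gene *Gm5084* (distance 0.085), followed by *Wnk4* (0.15), a kinase that controls ion transport.

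Keratinocyte genes, from the cells that make CXCL14, had log2 fold changes mostly below 0. Of 8 basal markers 3 passed lower and 0 higher, by edgeR, DESeq2 and limma-voom alike, 4 and 0 had an unadjusted p under 0.05, and 0 were called, with summed levels of 8562 to 12989 CPM in WT and 7253 to 13684 in Zfp36ΔARE skin, and *Krt5*, *Krt14* and *Col17a1* had log2 fold changes of -0.07, -0.14 and -0.28. Of 7 suprabasal markers 1 passed in each direction (0 without WT replicates 1 and 3), with *Krt10* at -0.62, *Krt1* at -0.37 and *Sbsn*, which passed, at -0.39. Their summed level was 12353 to 18272 CPM in WT and 7601 to 16663 in Zfp36ΔARE skin. All 10 hair shaft genes had groups that did not overlap, 2 of them called higher (8 without WT replicates 1 and 3) with a median log2 fold change of 2.29, while *Krt33a*, *Krt86* and *Krt81* (2.30, 2.25 and 2.38) did not pass. Of all tested genes 19.1% passed lower, 15.3% passed higher, 1.67% were called higher and 23.1% had groups that did not overlap. Without WT replicates 1 and 3, 2 of the 8 basal markers passed lower, against 9.06% of all tested genes. In that fit 195 of 15724 genes were called higher. The part of the keratinocyte and hair shaft genes in the *Cxcl14* values was not tested.

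*Cx3cl1* (Entrez 20312, chr8:94772009-94782427, plus strand) encodes fractalkine, a membrane-bound chemokine of epithelium and endothelium that CX3CR1-bearing macrophages recognize. It had 390, 419, 409, 468 and 535 normalized counts in WT and 556, 573, 517, 515 and 587 in Zfp36ΔARE skin. Of the 5 Zfp36ΔARE libraries, 3 lay above the WT range, and all 5 lay above the WT median. The means were 444 ± 58.4 and 550 ± 32.4 (SD, n = 5), and the log2 fold change was 0.31 (standard error 0.094, 95% interval 0.10 to 0.51, adjusted p = 0.03, edgeR). *Cx3cl1* is also the member whose 3′-UTR holds the nonamer printed above. The nearest profiles were those of *Polr3e* and *Etv3* (distance 0.065 for each).

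The *Cx3cl1* call was near its threshold. Its adjusted p rose to 0.0706, 0.058 and 0.0586 without WT replicates 1, 2 and 3, and to 0.0615, 0.0673 and 0.0666 without Zfp36ΔARE replicates 1, 2 and 5. The log2 fold change stayed between 0.26 and 0.38 when single libraries were left out. Without both WT replicates 1 and 3 it was 0.21 (adjusted p = 0.168).

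*Cx3cr1*, the receptor of CX3CL1, moved in the opposite direction. It had 99.5, 115, 128, 65.0 and 90.8 normalized counts in WT and 59.9, 29.0, 47.2, 72.1 and 44.8 in Zfp36ΔARE skin. Only Zfp36ΔARE replicate 4 reached into the WT range. This gave a log2 fold change of -0.98 (95% interval -1.54 to -0.41, adjusted p = 0.0178, edgeR), just short of 2-fold. It was -0.84 and did not pass without WT replicates 1 and 3 (adjusted p = 0.0775). *Cx3cr1* is itself expressed by macrophages, and the part of these cells in its values was not tested. The *Cx3cl1* to *Cx3cr1* log2 ratio was 1.95, 1.85, 1.65, 2.80 and 2.53 in WT and 3.16, 4.18, 3.38, 2.79 and 3.64 in Zfp36ΔARE libraries, with 4 of 5 above the WT range. It was 1.27 higher on average (exact two-sided permutation test, p = 0.0159, adjusted p = 0.037), and like the *Cxcr3* ratios it lost this call without any 1 library other than Zfp36ΔARE replicate 4 (differences 1.09 to 1.44, adjusted p up to 0.0926). This ratio too was chosen with earlier results of these data known.

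**Figure D3:**
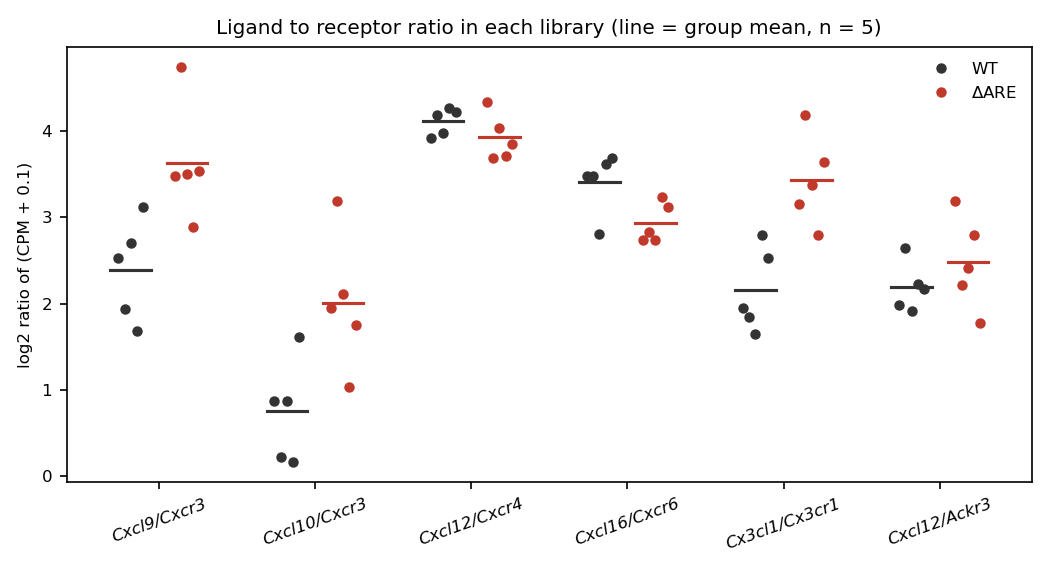
Log2 ratio of ligand to receptor CPM (each + 0.1) in every library for 6 pairs, with WT in black, Zfp36ΔARE in red and lines for the group means (n = 5). The *Cxcl9*/*Cxcr3*, *Cxcl10*/*Cxcr3* and *Cx3cl1*/*Cx3cr1* means differ by 1.24, 1.26 and 1.27, and in each pair 1 Zfp36ΔARE library lies within the WT range.

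The proteases that shed CXCL16 and CX3CL1 were both well expressed. *Adam17* fell by 0.25 on the log2 scale (adjusted p = 0.0146, edgeR), from 2705 to 3068 normalized counts in WT to 2204 to 2616 in Zfp36ΔARE skin, with no overlap. Its log2 fold change was -0.23 and did not pass without WT replicates 1 and 3 (adjusted p = 0.0546). *Adam10* had a log2 fold change of 0.10 (adjusted p = 0.309).

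The remaining partners are scavengers, alternative ligands and an alternative receptor. *Ackr1*, a decoy receptor of venular endothelium, had 251 to 523 normalized counts in WT and 151 to 204 in Zfp36ΔARE skin and was called lower (log2 fold change -1.05, adjusted p = 0.007, edgeR). *Ackr4*, a scavenger of homeostatic CC chemokines, had a log2 fold change of -0.43 (adjusted p = 0.0614), and it passed with DESeq2 (0.0408) and with edgeR without Zfp36ΔARE replicate 2 (-0.56, adjusted p = 0.0288). *Mif*, a cytokine that also binds CXCR4, rose by 0.26 (adjusted p = 0.039, edgeR), a call lost without any 1 of WT replicates 1 to 3 or Zfp36ΔARE replicates 1 to 4 (adjusted p = 0.0619 to 0.0883) or without WT replicates 1 and 3 together (0.185). *Cd74*, the MIF receptor and class II invariant chain, had 13967 to 26557 normalized counts in WT and 7138 to 10902 in Zfp36ΔARE skin and was called lower (log2 fold change -1.01, adjusted p = 0.00684, edgeR).

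In all, 5 of the 9 tested partners passed lower, 1 passed higher, 2 were called lower, and 4 had groups that did not overlap. Among all tested genes 19.1% passed lower, 15.3% passed higher, 6.64% were called lower and 23.1% had groups that did not overlap. The median log2 fold change of the partners was -0.43. Without WT replicates 1 and 3, 3 of the 9 passed lower (*Ackr3*, *Ackr1* and *Cd74*), 0 passed higher and 0 were called, against 9.06% of all tested genes passing lower and 2.11% called lower. *Ackr1* and *Cd74* lay at the edge of 2-fold, and the count of called partners was 0 without WT replicate 1 or WT replicate 3, 1 without Zfp36ΔARE replicate 2 or 3, and 3 without WT replicate 4 or 5 or Zfp36ΔARE replicate 1 or 4. *Cxcl11*, the further CXCR3 ligand, which is annotated as a polymorphic pseudogene, had 2 to 14 raw counts and *Cxcl17* 0 to 2, too few to be tested.

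**Figure D4:**
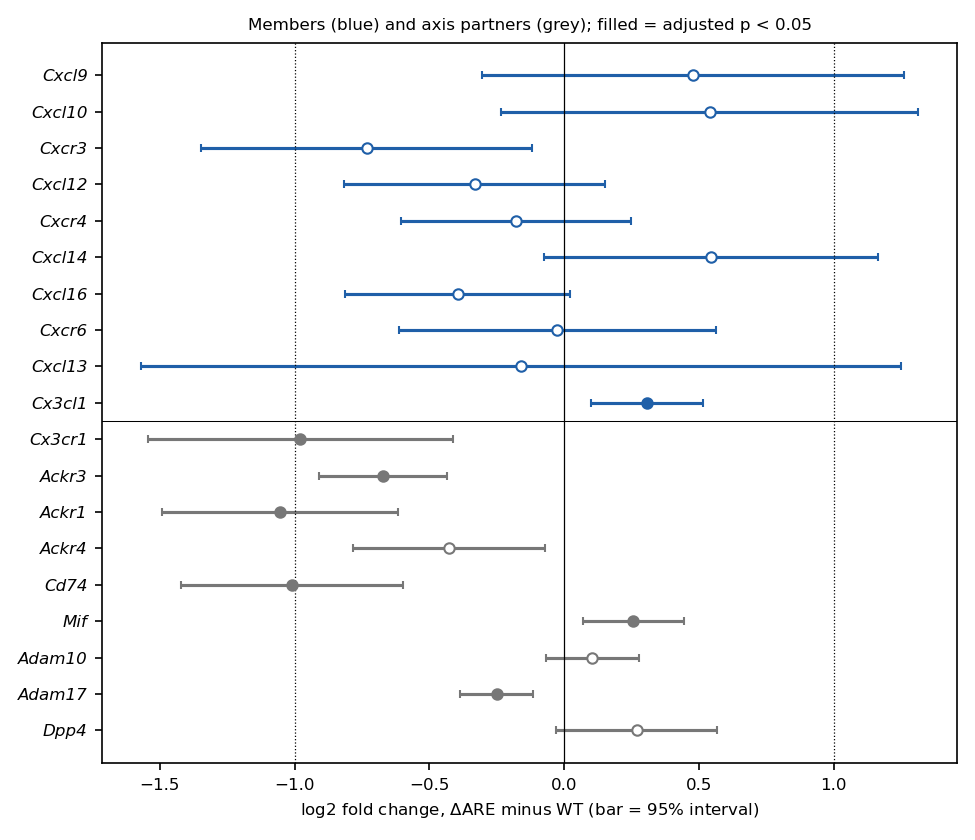
Log2 fold changes (Zfp36ΔARE minus WT) with 95% intervals for the 10 members (blue) and their 9 tested partners (grey), where filled points have an adjusted p under 0.05 and dotted lines mark 2-fold. Among the members *Cx3cl1* alone is filled, and among the partners *Cx3cr1*, *Ackr3*, *Ackr1*, *Cd74* and *Adam17* are filled below 0.

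Downstream of the receptors, genes of chemokine receptor signaling had a median log2 fold change of -0.37. Of 13 tested, 7 passed lower and 1 higher, and 3 were called lower, against 19.1%, 15.3% and 6.64% of all tested genes. These counts were 4, 0 and 1 without WT replicates 1 and 3. In that fit 9.06% of all tested genes passed lower, 1080 of 15724 passed higher and 2.11% were called lower. *Gnai2*, the main inhibitory G protein of leukocytes, fell by 0.35 on the log2 scale (adjusted p = 0.0145, edgeR), while *Gnai3* and the receptor kinase gene *Adrbk1* were at -0.04 and 0.003. The called genes, named after their values were seen, were *Pik3cg* (log2 fold change -1.19), *Dock2* (-1.17) and *Rac2* (-1.05), which act in leukocyte migration, and *Rgs16*, which limits G protein signaling, rose by 0.65. Macrophage markers fell beside them, and the part of those cells was not tested.

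Per length, in FPKM (fragments scaled to gene length and library size), the members covered a wide range of levels. In WT skin the order of mean levels was *Cxcl14* (88.0), *Cxcl12* (35.6), *Cxcl16* (24.0), *Cxcr4* (8.11), *Cx3cl1* (5.30), *Cxcl13* (5.02), *Cxcl9* (4.87), *Cxcl10* (4.0), *Cxcr6* (3.04) and *Cxcr3* (1.52). Between neighbors in this order the ranges over libraries were apart only for *Cxcl16* over *Cxcr4*. In Zfp36ΔARE skin the mean levels were *Cxcl14* 128, *Cxcl12* 28.3, *Cxcl16* 18.3, *Cxcr4* 7.18, *Cxcl9* 6.76, *Cx3cl1* 6.55, *Cxcl10* 5.77, *Cxcl13* 4.59, *Cxcr6* 2.98 and *Cxcr3* 0.913. There the ranges of neighbors were apart for *Cxcl14* over *Cxcl12*, *Cxcl16* over *Cxcr4* and *Cxcr6* over *Cxcr3*. Over all libraries, the mean level of *Cxcl14* lay at percentile 96.2 of the tested genes and that of *Cxcr3* at percentile 15.8.

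**Figure D5:**
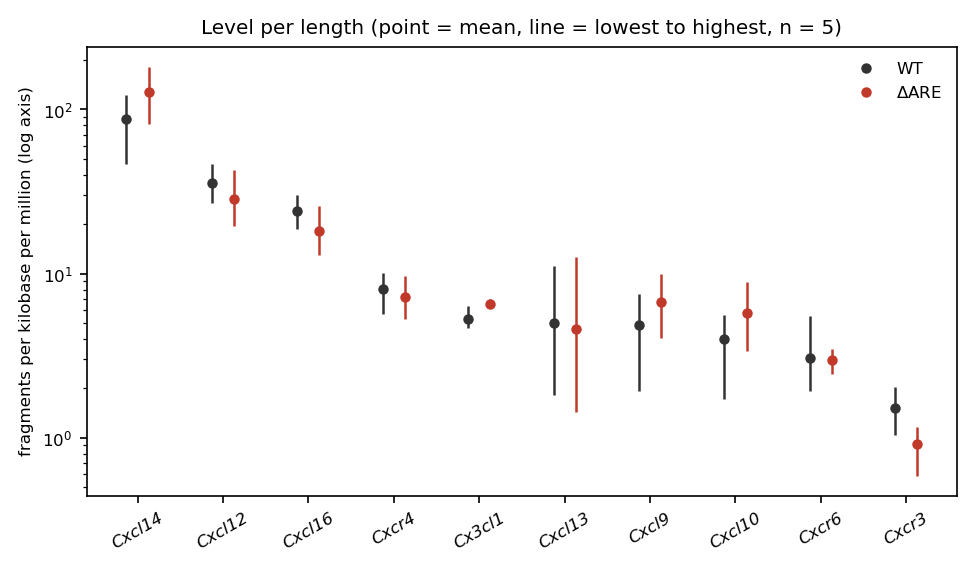
Level per length of each member (FPKM, log axis), with points for the mean and lines from the lowest to the highest of 5 libraries, WT in black and Zfp36ΔARE in red. The order runs from *Cxcl14* (88.0 and 128) to *Cxcr3* (1.52 and 0.913).

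The Zfp36ΔARE mouse without Y-linked counts, replicate 1, lay outside the range of the other 4 Zfp36ΔARE mice in 4 members. It had more *Cxcr3* (50.2 against 25.3 to 47.5 normalized counts), *Cxcl12* (8226 against 3724 to 6172) and *Cxcl14* (8794 against 3994 to 7055), and less *Cxcl13* (44.2 against 56.1 to 393). For *Cx3cl1* it lay within their range, at 556 against 515 to 587. Against the 5 WT mice, which also had almost no Y-linked counts, it lay above their range for *Cxcl9*, *Cxcl10*, *Cxcl14* and *Cx3cl1*, below it for *Cxcl13* and *Cxcl16*, and within it for the other 4 members. With 1 such mouse, genotypes were not tested within either kind.

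The other nearest profiles were *Casp4* (0.079) and *Apba1* (0.096) for *Cxcr3*, *Icosl* (0.11) and *Abca1* (0.13) for *Cxcl12*, *AI427809* (0.13) and *Tnfaip3* (0.14) for *Cxcr4*, and *Ccbe1* and *Havcr2* (both 0.12) for *Cxcl16*. The distance is small for genes of low level, since log2(CPM + 1) compresses them, so distances are compared only within a member. The libraries share depth and scaling, and all of these are descriptions over 10 libraries.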

How the data were processed

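Whole-skin RNA of 5 WT and 5 Zfp36ΔARE mice was measured by paired-end sequencing. After a filter on mean read quality, the authors mapped to mm10 using STAR 2.5.2b, counted fragments with featureCounts of Subread 1.5.0-p1 (versions from the submitters' processing notes), and deposited raw counts per gene without normalization. The study tested them with DESeq2. Strand, multimapping and annotation are not given in the sources used here. Rows with no gene name (2, holding 7.38e-05% of counts) were left out, and 0 sample columns were unmapped.

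From these counts edgeR 4.0.16 (R 4.3.3, limma 3.58.1) computed TMM factors, filtered genes with filterByExpr and fitted robust quasi-likelihood models with genotype as the only term to all 15543 genes that passed, adjusting p-values by Benjamini-Hochberg. Calls required adjusted p under 0.05 and fold over 2. Normalized counts are TMM-scaled to the average effective library size. Standard errors are the absolute log2 fold change over the square root of F. Ligand to receptor ratios used log2(CPM + 0.1) and exact two-sided permutation tests. Levels per length used the gene lengths in the table. On simulated data with 200 changed genes among 15443, all changed by well over 2-fold, 95.5% were recovered by edgeR, with 1.04% false calls. Recovery of changes below 2-fold, such as those of the members, was not tested.

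The members, gene lists and tests were chosen with earlier results of these data known. Named genes are the members, all partners, *Zfp36*, up to 3 genes of each list with the highest mean CPM, and the 2 genes nearest in profile to each member, other exceptions being stated and some genes and 1 promoter motif not reported here. Alternatives were DESeq2 1.42.0, limma-voom, other scalings and filters, a replicate block, glmTreat, other pseudocounts and left-out libraries. Leaving out WT replicates 1 and 3 for the gene lists was chosen after seeing the data. Same-numbered libraries did not deviate together (correlations -0.19 to 0.085), so the numbers were not used as pairs. P-values set the difference between genotypes against the variation between these mice or, in the permutation tests, against all relabelings of them. Positions are from GENCODE on GRCm38, the build of mm10.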

Additional observations from a re-analysis of the deposited data

Results flagged for a closer look

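In 4 of 40 groups of 5 libraries, covering the members and their partners, 1 library stood far from the others, with a gap to its neighbor of over 0.71 of the group's range. About 1 in 20 groups is expected to do so by chance, here 2. *Cxcl13* had 347 normalized counts in WT replicate 2, against 56.7 to 139 in the other WT libraries, and 393 in Zfp36ΔARE replicate 4, against 44.2 to 115. *Cxcr6* had 278 in WT replicate 3, against 97.1 to 142. *Ackr3* had 1084 in Zfp36ΔARE replicate 5, against 880 to 903, and this value still lay below every WT library.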

How the results depend on the processing

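Under all 19 alternatives the number of members called at 2-fold stayed at 0 in both directions. The number of members with an adjusted p under 0.05, 1 as reported, was 2 with DESeq2, where *Cxcr3* joined *Cx3cl1*, and 0 without WT replicates 1 and 3. It was also 0 with glmTreat, which tests against 2-fold itself. With glmTreat even *Zfp36*, at 2.52-fold, did not pass (adjusted p = 0.444), so the 0 of that setting says little about the members. The number of members passing ran from 0 to 2 with single libraries left out. The direction of *Cxcr6* turned with limma-voom (0.083 on the log2 scale), without WT replicate 3 (0.29), without Zfp36ΔARE replicate 2 (0.04) or 3 (0.04), and without WT replicates 1 and 3 (0.34). That of *Cxcl13* turned without WT replicate 2 (0.38) and without Zfp36ΔARE replicates 1 (0.08) or 2 (0.05). With single libraries left out, *Cxcr6* ran from -0.15 to 0.29 and *Cxcl13* from -0.99 to 0.38. The other 8 members kept their direction. With single libraries left out, the log2 ratio differences were 0.96 to 1.42 for *Cxcl9*/*Cxcr3*, 0.96 to 1.5 for *Cxcl10*/*Cxcr3*, 1.09 to 1.44 for *Cx3cl1*/*Cx3cr1* and -0.32 to 0.34 for *Cxcl13*/*Cxcr5*. The last was 0.60 with a pseudocount of 0.01. Without WT replicates 1 and 3 the first 3 were 1.38, 1.34 and 1.04 (adjusted p = 0.125, exact permutation test), in a design of 3 mice against 5 whose smallest p before adjustment is 0.0179. The causes were not tested.

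In a fit blocked on the replicate number, *Cx3cl1* was 0.31 (adjusted p = 0.0566, edgeR), 0 members and 3 partners (lower) passed, and *Cxcr6* was 0.057. The log2 fold change of *Cx3cl1* was also 0.31 without the block, and why its adjusted p rose was not tested. Depth limited *Cxcr5*, *Cxcl11*, *Cxcl17* and *Ifng*, which had at most 14 counts in a library.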
